A study of Mus musculus with 8 samples.

Results

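The interleukin 6 (IL-6) family and STAT3 genes described here are Il6, Il11, Lif, Osm, Il6ra, Il6st, Lifr, Osmr, Stat3 and Socs3. They were chosen by symbol, and 10 of 10 were found among the 15047 gene symbols of the deposited RNA-Seq values. The values came from pancreas tissue of 8 male mice. C57BL/6 WT mice were fed a Low-Fat Diet (LFD, n = 3) or a High-Fat Diet with 60% of calories from fat (HFD, n = 3) for 10 weeks from the age of 4 weeks. Leptin-deficient mice (C57BL/6J; ob/ob, n = 2) were assigned to standard chow at the same age of 4 weeks, so that they differ from LFD in genotype and in diet. The sample labels name the pancreas only, whereas the paper describes these mice as carriers of orthotopic mT organoids, which were grown from tumors of KPC mice, a Pdx1-Cre driven tumor model. The tissue can therefore hold host pancreas, graft, stroma and immune cells in unknown shares, and fewer cells of a type cannot be told apart from less RNA per cell. The ob allele stops the translation of leptin and leaves a transcript, so the Lep value, between 5.86 and 6.28 in LFD, 7.26 and 7.31 in HFD, and 6.78 and 8.12 in ob/ob, does not check the genotype.

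IL-6, IL-11, LIF and oncostatin M are secreted cytokines that signal through receptors sharing the gp130 chain, which Il6st encodes. The specific chains are Il6ra for IL-6, Lifr for LIF, and Osmr for oncostatin M. Receptor-bound JAK kinases phosphorylate STAT3, which enters the nucleus and switches on genes including Socs3, whose protein binds gp130 and the JAK kinases and turns the signal off. In the pancreas this pathway is known for its role in the inflammation that accompanies precursor lesions and tumor growth, with macrophages and fibroblasts as sources of the ligands. As STAT3 is switched on by phosphorylation, RNA values do not measure its activity.

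All values below are rlog values, that is, counts on the log2 scale corrected for library size, in which differences of genes with few reads are shrunken. Values of different genes are not scaled by gene length, so levels were compared between mice and not between genes. The place of a gene's mean among all genes is given only as a sign of where the transformation shrinks differences most. As counts were not used here, the sequencing depth is unknown and errors are the spread between mice. Replicates are different animals. Among the obese mice, HFD replicate 1 alone lay within the LFD range of the acinar genes. The mean of 24 acinar genes was 17.95 to 18.41 in LFD and 18.30 in this mouse. It was 16.21 and 14.25 in the remaining HFD mice and 17.59 and 14.59 in ob/ob, so that ob/ob replicate 1 was the next highest of the obese mice. The calls that changed without HFD replicate 1 are given beside the results.

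The sequences before the RefSeq starts of Il6 and Socs3 are shown as examples of a ligand gene and of the gene of the feedback inhibitor. They come from the RefSeq promoter table of GRCm38.p6, which held 11 windows for 9 of the 10 genes, and Osm was not matched. The windows of 250 bases before each RefSeq gene start were searched on both strands for the STAT palindrome TTCNNNGAA, the AP-1 site TGANTCA and the NF-kB site, whose matches did not overlap each other. Capitals mark the matches, and the bases run 5′ to 3′ on the strand of the gene.
Il6, chr5:30012864-30013113, plus strand: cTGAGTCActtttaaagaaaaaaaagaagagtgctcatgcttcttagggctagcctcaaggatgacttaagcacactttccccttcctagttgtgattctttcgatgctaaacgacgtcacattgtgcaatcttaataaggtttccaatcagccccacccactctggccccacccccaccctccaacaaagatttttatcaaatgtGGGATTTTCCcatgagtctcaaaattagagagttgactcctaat
Socs3, chr11:117969452-117969616, minus strand, the part of the window that overlaps no annotated exon, which lies inside the Gencode M21 gene in an intron of a longer transcript: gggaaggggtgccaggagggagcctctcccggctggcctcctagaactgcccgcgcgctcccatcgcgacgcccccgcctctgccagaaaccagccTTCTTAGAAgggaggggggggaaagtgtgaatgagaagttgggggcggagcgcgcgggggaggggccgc
In Il6, the AP-1 match began 249 bases and the NF-kB match 44 bases before the start, and in Socs3 the STAT match began 154 bases before it. AP-1 matches were also present in a window of Il11 (98 bases before the start) and in that of Lif (228 bases). Of all 32851 windows of this length, 7.02% held the STAT palindrome, 6.75% the AP-1 site and 0.356% the NF-kB site. Such matches are descriptions of the sequence, and binding was not measured.

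To ask whether the family differed between obese and lean pancreata, rlog values were compared with limma over all 15047 genes. With all mice weighted equally, the adjusted p-value was under 0.05 for 0 of the 10 genes in any comparison, as for 0% of all genes. Before adjustment, 2985 of all genes had a p-value under 0.05 in HFD and 2831 in ob/ob. At an unadjusted p-value under 0.05, the ligands Il6, Il11 and Osm and the receptor Osmr were higher in HFD than in LFD, and the receptors Il6ra and Lifr lower, so that 6 of 10 genes were called where 19.8% of all genes were. In ob/ob against LFD, Il6, Osm, Osmr and Socs3 were higher and none lower, 4 of 10 genes where 18.8% of all genes were called. For the mean of both models, Il6, Osm, Osmr and Socs3 were higher and Lifr was lower than in LFD, 5 of 10 genes where 25.4% of all genes were called. The median difference of the 10 genes was 0.75 in HFD and 0.23 in ob/ob, beside 0.03 and 0.04 over all genes. These comparisons share the LFD mice and are not independent of each other. Groups without overlap were found for 3 of 10 genes in HFD against LFD (25.2% of all genes), of which 2 were higher (12.9%) and 1 lower (12.3%). In ob/ob against LFD they were found for 6 of 10 (45.9% of all genes), of which 5 were higher (24.1%) and 1 lower (21.8%).

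The counts depended on single mice, above all on HFD replicate 1. This mouse lay within the LFD range for Il6, Osmr, Lifr and Socs3, so leaving it out was bound to enlarge their HFD differences. The adjusted p-values without this mouse, here and below, therefore describe the dependence on it and are not independent evidence. Without HFD replicate 1, Il6, Lifr, Osmr and Socs3 had an adjusted p-value under 0.05 in HFD against LFD (4 of 10 genes, where 18.7% of all genes were called), and 0 of 10 did in ob/ob against LFD (0.591% of all genes). For the mean of both models, Il6, Osm, Osmr, Lifr and Socs3 had one, 5 of 10 genes where 22.1% of all genes were called. Before adjustment, the count without this mouse was 8 of 10 in HFD, where Il6st and Stat3 were not called, and 36.2% of all genes were. It was 5 of 10 in ob/ob, with Lifr added, and 5 of 10 for both models, where 27.1% and 38.7% of all genes were called. Without LFD replicate 3, the counts before adjustment were 2 in HFD (Il11 and Osm, 10.6% of all genes) and 2 for both models (Il6 and Osm, 13.5%). Without HFD replicate 2 the HFD count was 2 (9.84% of all genes), without HFD replicate 3 it was 3 (10.6%), without LFD replicate 2 it was 3 (13.6%) and without LFD replicate 1 it was 4 (12.9%). Without ob/ob replicate 2 the count was 2 in ob/ob (Il6 and Osm, 5% of all genes) and 3 for both models (14.1%). With all mice and array weights, the adjusted p-value was under 0.05 for 8 of 10 genes in HFD against LFD (44.2% of all genes). The same held for 5 of 10 for both models (28.5%) and 0 of 10 in ob/ob against LFD. The weights of HFD replicates 1, 2 and 3 were 0.273, 9.36 and 0.529, so the weighted HFD mean rested mostly on replicate 2.

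**Figure D1:**
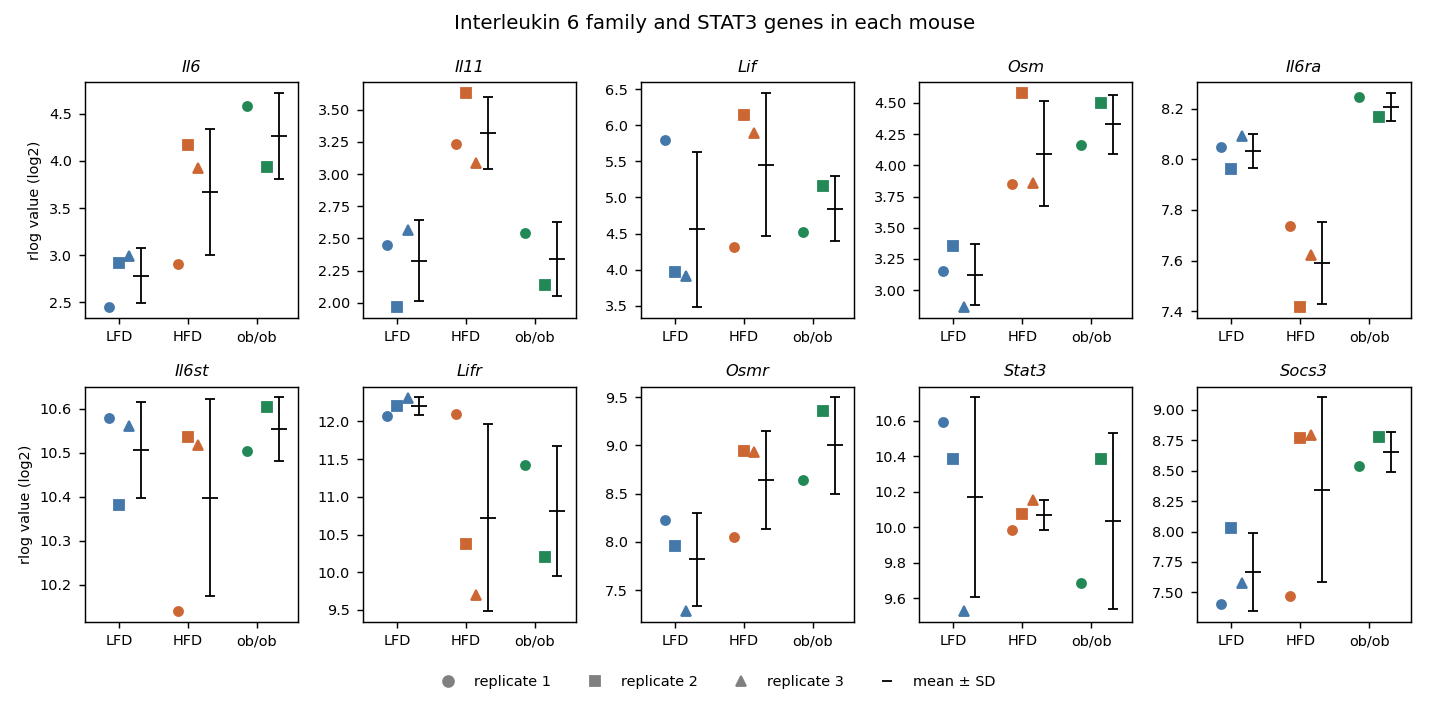
rlog values (log2 scale, vertical axes with their own range) of the 10 genes in each mouse, by group, with black bars for the group mean ± SD. All 5 obese mice lie above the LFD mice for Osm only, Il11 is high in HFD alone, and HFD replicate 1 (orange circle) lies beside the LFD mice for Il6, Lifr, Osmr and Socs3.

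Among the ligands, Osm showed the cleanest separation of lean and obese mice. Osm encodes oncostatin M, made mainly by macrophages, neutrophils and T cells (chromosome 11, 4236420 to 4241026, GRCm38, Gencode M21). Its rlog value was 3.15, 3.35 and 2.87 in LFD, 3.85, 4.58 and 3.86 in HFD, and 4.16 and 4.50 in ob/ob, in the order of the replicate numbers here and below. Every obese mouse was above every LFD mouse, which 9.4% of all genes shared. The difference from LFD was 0.97 (SE 0.30, adjusted p = 0.192 with limma) in HFD and 1.20 (SE 0.34, adjusted p = 0.197) in ob/ob. For the mean of both models it was 1.09 (SE 0.27), with an adjusted p-value of 0.107 in limma with all mice and 0.0264 without HFD replicate 1. The mean of Osm was above that of 11.7% of the genes in the table.

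Il6 separated 4 of the obese mice from the others. Il6 encodes IL-6, the founding ligand of the family (chromosome 5, 30013114 to 30019981). Its value was 2.45, 2.91 and 2.99 in LFD, 2.91, 4.17 and 3.93 in HFD, and 4.59 and 3.94 in ob/ob. HFD replicate 1 lay within the LFD range, and the other 4 obese mice were above it. The difference was 0.89 (SE 0.39, adjusted p = 0.25 with limma) in HFD and 1.48 (SE 0.43, adjusted p = 0.2) in ob/ob. Without HFD replicate 1 the HFD difference was 1.27, with an adjusted p-value of 0.0364 in limma. Without HFD replicate 2 it was 0.63. On leaving out each mouse, the unadjusted p-value of the HFD difference in limma reached 0.169. The mean of Il6 over the mice was above that of 9.37% of the genes in the table.

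Il11 was apart from LFD in HFD and not in ob/ob. Il11 encodes IL-11, a product of fibroblasts and epithelial cells that is known for its part in fibrosis (chromosome 7, 4772373 to 4782859). Its value was 2.45, 1.97 and 2.56 in LFD, 3.23, 3.63 and 3.09 in HFD, and 2.54 and 2.13 in ob/ob. The 3 HFD mice were above all the other mice, whereas the ob/ob mice were within the LFD range. The difference from LFD was 0.99 (SE 0.28, adjusted p = 0.18 with limma) in HFD and 0.01 (95% confidence interval -0.71 to 0.74) in ob/ob, and the sign of the latter turned with the scaling of the mice. Tested directly, ob/ob was below HFD by a difference of -0.98 (SE 0.32, adjusted p = 1 with limma). The mean of Il11 was above that of 4.26% of the genes in the table.

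Lif overlapped between the groups. Lif encodes leukemia inhibitory factor, which stromal and tumor cells release (chromosome 11, 4257557 to 4272514, next to Osm on the same strand). Its value was 5.80, 3.97 and 3.91 in LFD, 4.31, 6.14 and 5.90 in HFD, and 4.52 and 5.16 in ob/ob. LFD replicate 1 came near the 2 highest HFD mice, and all groups overlapped. The difference was 0.89 (95% confidence interval -0.54 to 2.33) in HFD and 0.28 (-1.32 to 1.89) in ob/ob, with adjusted p-values of 0.432 and 0.837 in limma. Without HFD replicate 1 the HFD difference was 1.46 (adjusted p = 0.104 with limma), and leaving out LFD replicate 1 gave 1.51 in HFD and 0.90 in ob/ob. Both of these HFD differences had an unadjusted p-value under 0.05. Without LFD replicate 3 the values were 0.57 in HFD and -0.040 in ob/ob, without HFD replicate 2 the HFD difference was 0.55, and with the acinar covariate and all mice the values were 0.21 in HFD and -0.46 in ob/ob.

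The shared chain Il6st and the specific chains behaved differently. Il6st, the gene of gp130 (chromosome 13, 112464070 to 112510086), had values of 10.58, 10.38 and 10.56 in LFD, 10.14, 10.54 and 10.52 in HFD, and 10.50 and 10.61 in ob/ob. All 8 mice lay between 10.14 and 10.61, and the groups overlapped. The difference was -0.11 (95% confidence interval -0.49 to 0.27) in HFD and 0.05 (-0.38 to 0.48) in ob/ob. The sign of both differences turned under another scaling of the mice.

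Il6ra lay on opposite sides of LFD in HFD and ob/ob. Il6ra encodes the IL-6 binding chain, which is found on hepatocytes and leukocytes and is also shed in a soluble form (chromosome 3, 89864059 to 89913196). Its value was 8.05, 7.96 and 8.09 in LFD, 7.74, 7.42 and 7.62 in HFD, and 8.25 and 8.17 in ob/ob. The groups did not overlap, with HFD below LFD and ob/ob above it. The difference was -0.44 (SE 0.165, adjusted p = 0.216 with limma) in HFD and 0.17 (SE 0.185, adjusted p = 0.604) in ob/ob. Set against HFD, ob/ob was higher by 0.62 (SE 0.185, adjusted p = 1 with limma), and of the 10 genes Il6ra and Il11 did not overlap between these groups, as did 13.3% of all genes. At an unadjusted p-value under 0.05, the same 2 of 10 genes were called, where 3.91% of all genes were.

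Osmr and Lifr, neighbours on chromosome 15, pointed in opposite directions. Osmr encodes the oncostatin M receptor of fibroblasts, endothelium and epithelium (6813577 to 6874969). Its value was 8.22, 7.95 and 7.28 in LFD, 8.05, 8.95 and 8.93 in HFD, and 8.65 and 9.35 in ob/ob. HFD replicate 1 was inside the LFD range, and the other obese mice were above it. The difference was 0.82 (SE 0.34, adjusted p = 0.239 with limma) in HFD and 1.18 (SE 0.38, adjusted p = 0.21) in ob/ob. Without HFD replicate 1 the HFD difference was 1.12, with an adjusted p-value of 0.0416 in limma, and with the acinar covariate and all mice the differences were 0.36 in HFD and 0.68 in ob/ob.

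Lifr encodes the LIF receptor chain, which pairs with gp130 (chromosome 15, 7090614 to 7197489). Its value was 12.08, 12.21 and 12.32 in LFD, 12.10, 10.38 and 9.69 in HFD, and 11.43 and 10.21 in ob/ob. The mice with low Lifr were those with low acinar genes, in the same order from HFD replicate 3 over ob/ob replicate 2 and HFD replicate 2 to ob/ob replicate 1. The difference was -1.48 (SE 0.565, adjusted p = 0.221 with limma) in HFD and -1.38 (SE 0.63, adjusted p = 0.275) in ob/ob. Without HFD replicate 1 the HFD difference was -2.17 (adjusted p = 0.0158 with limma), and the adjusted p-value in ob/ob was 0.0751. Without HFD replicate 3 the HFD difference was -0.96, and without ob/ob replicate 2 the ob/ob difference was -0.78. With the acinar mean as a covariate and all mice, the differences were -0.47 and -0.29, with adjusted p-values of 0.441 and 0.705.

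**Figure D2:**
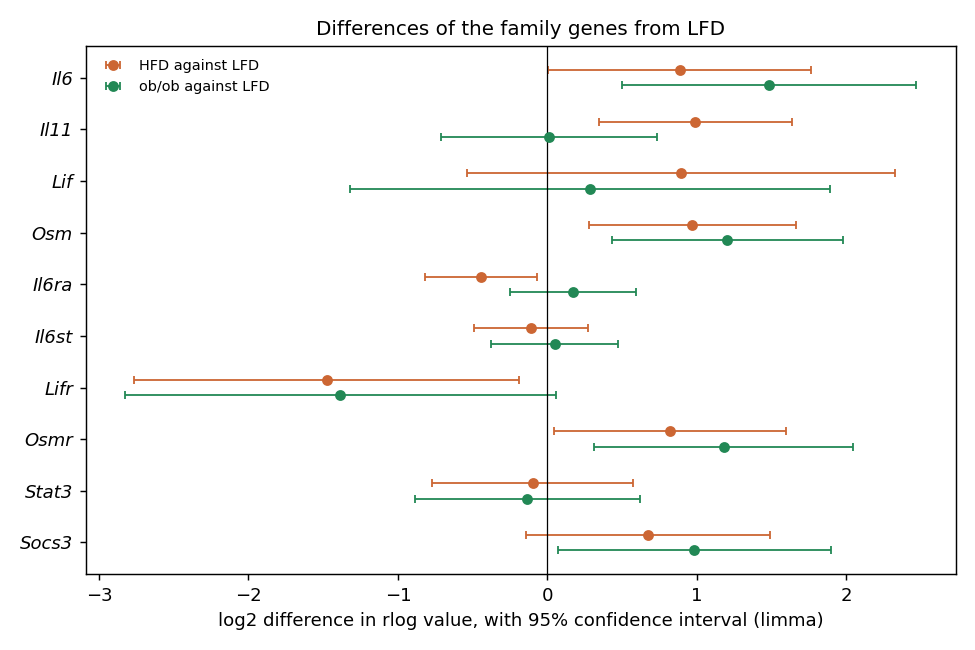
Log2 differences in rlog value of HFD (orange) and ob/ob (green) from LFD for the 10 genes, with 95% confidence intervals of limma that are not adjusted for the number of genes. Osm, Il6 and Osmr lie above 0 in both models with intervals that leave out 0, whereas Il6st and Stat3 lie near 0 and Il11 is displaced in HFD alone.

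Stat3 encodes the transcription factor on which the receptors converge (chromosome 11, 100885098 to 100939540). Its value was 10.59, 10.39 and 9.53 in LFD, 9.98, 10.08 and 10.15 in HFD, and 9.68 and 10.39 in ob/ob. The LFD mice spread more widely than the HFD mice and enclosed all of the obese mice. The difference was -0.10 (95% confidence interval -0.77 to 0.57) in HFD and -0.13 (-0.89 to 0.62) in ob/ob.

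Socs3, the feedback inhibitor and a direct STAT3 target, divided the mice as Il6 did (chromosome 11, 117966079 to 117970047). Its value was 7.40, 8.03 and 7.58 in LFD, 7.47, 8.77 and 8.79 in HFD, and 8.54 and 8.77 in ob/ob. HFD replicate 1 was among the LFD mice, and the other 4 obese mice were close together above them. The difference was 0.67 (SE 0.36, adjusted p = 0.316 with limma) in HFD and 0.98 (SE 0.40, adjusted p = 0.25) in ob/ob. Without HFD replicate 1 the HFD difference was 1.11, with an adjusted p-value of 0.0195 in limma, and without HFD replicate 3 it was 0.45. With the acinar covariate and all mice it was 0.22 in HFD and 0.49 in ob/ob.

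The genes most like Il6 and Socs3 over the 8 mice were looked up among the 15037 other genes. For Il6 they were Msl3l2 (Pearson r = 0.983, Spearman rho = 0.976), Rtn1 (0.982, 0.976) and Tph2 (0.979, 0.881), and on leaving out the 2 mice with the most extreme Il6 values, r was 0.971, 0.989 and 0.964. Rtn1 encodes a reticulon of neuroendocrine cells and Tph2 a tryptophan hydroxylase. For Socs3 they were Panx1 (r = 0.986, rho = 0.952), Melk (0.982, 0.976) and Slfn10-ps (0.981, 0.905), and on leaving out the 2 mice with the most extreme Socs3 values, r was 0.990, 0.965 and 0.988. Panx1 encodes a membrane channel and Melk a kinase of dividing cells. As the mice fall into 4 with low and 4 with high values of Il6 and of Socs3, these coefficients describe that division, and as the highest of many they were not tested.

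Other genes of the pathway were taken from 5 lists, of which 41 of 46 genes were measured. At an unadjusted p-value under 0.05, 15 of the 41 were higher in HFD and 3 were lower, where 11.5% and 8.35% of all genes were. In ob/ob, 7 were higher and 2 lower, where 11.6% and 7.18% of all genes were, and 0 of the 41 had an adjusted p-value under 0.05 in either comparison. Most of the genes called higher were STAT3 targets, with 10 of 20 in HFD and 6 of 20 in ob/ob. This was the longest list, with 20 of the 41 genes. As the lists were chosen with earlier results of these data known, the counts are descriptions and not independent evidence. The median difference of the 20 targets was 0.79 in HFD and 0.74 in ob/ob.

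The 3 target genes with the largest differences were Saa3, Timp1 and Ccl2. Saa3, an acute phase protein made locally by macrophages and fat, was at 6.01, 6.43 and 6.19 in LFD, 8.16, 9.33 and 8.67 in HFD, and 8.40 and 8.37 in ob/ob. Timp1, the inhibitor of matrix metalloproteinases, was at 6.58, 7.33 and 6.71 in LFD, 7.91, 9.51 and 9.17 in HFD, and 9.15 and 9.79 in ob/ob. Ccl2, the monocyte chemoattractant, was at 4.64, 5.01 and 4.59 in LFD, 5.52, 6.40 and 5.79 in HFD, and 6.21 and 7.02 in ob/ob. All 5 obese mice, HFD replicate 1 included, were above all LFD mice for each of the 3 genes. This held for 7 of the 20 targets, with 1 target below, and for 9.4% of all genes. The 3 genes were named for the size of this difference, so their separation and p-values are descriptions and not independent evidence. For the mean of both models, the difference from LFD was 2.34 for Saa3 (SE 0.26, adjusted p = 0.0598 with limma), 2.29 for Timp1 (SE 0.37, adjusted p = 0.081) and 1.51 for Ccl2 (SE 0.30, adjusted p = 0.0892). Saa3 and Ccl2 are also targets of NF-kB, and Timp1 of AP-1. Pim3, a kinase gene of the same list, was the target called lower and is named for that reason. Its difference was -1.41 for both models (SE 0.31, adjusted p = 0.0961 with limma). Differences were above 0 for 17 of the 20 targets in HFD and for 17 in ob/ob, where 7879 and 7988 of all 15047 genes were. Reg3b was below 0 in both, at -1.05 in HFD and -0.81 in ob/ob, with overlapping groups. Bcl6 was at -0.21 in HFD and Vegfa at -0.06 in ob/ob.

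Among the remaining ligands, 4 of 7 were measured. Clcf1, which encodes cardiotrophin-like cytokine factor, was at 4.80, 5.45 and 4.91 in LFD, 5.85, 7.23 and 7.25 in HFD, and 5.57 and 6.74 in ob/ob, so that all obese mice were above LFD. Ctf1, the gene of cardiotrophin 1, was at 4.28 to 4.94 in LFD, 3.18 to 4.07 in HFD and 3.83 to 4.51 in ob/ob. The difference for the mean of both models was 1.41 for Clcf1 (SE 0.42, adjusted p = 0.118 with limma) and -0.72 for Ctf1 (SE 0.31, adjusted p = 0.192).

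For the receptor list, the median difference was 0.38 in HFD and 0.11 in ob/ob, for the kinases and STAT genes -0.001 and 0.04, and for the inhibitors, phosphatases and sheddases 0.11 and 0.29. Of 3 receptor genes measured, Cntfr was called higher in HFD, and Il11ra1 and Il27ra were not called. Cntfr differed from LFD by 0.98 in HFD and 0.11 in ob/ob, Il11ra1, the IL-11 receptor, by -0.49 and -0.37, and Il27ra by 0.38 and 0.44. Of 6 kinase and STAT genes, Jak2 was called higher in HFD, with a difference of 0.75 (SE 0.29) and of 0.42 (SE 0.32) in ob/ob, while Stat5b differed by -0.33 and -0.12. Of 8 inhibitors, phosphatases and sheddases, Adam17 and Socs2 were called higher in HFD and Adam17 in ob/ob. The calls in these short lists stand beside 11.5% of all genes called higher in HFD and 11.6% in ob/ob. Adam17 encodes the protease that sheds the IL-6 receptor, and was at 8.45, 8.75 and 8.68 in LFD, 9.03, 9.55 and 9.44 in HFD, and 9.30 and 9.89 in ob/ob. Its difference for the mean of both models was 0.84 (SE 0.19, adjusted p = 0.106 with limma). Every obese mouse was above every LFD mouse, as for 9.4% of all genes, and Adam17 too was named for the size of its difference. Socs2, a feedback inhibitor of growth hormone signals, differed by 0.79 and 0.42, and the phosphatase gene Ptpn6, a marker of leukocytes, by 0.32 and 0.59.

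**Figure D3:**
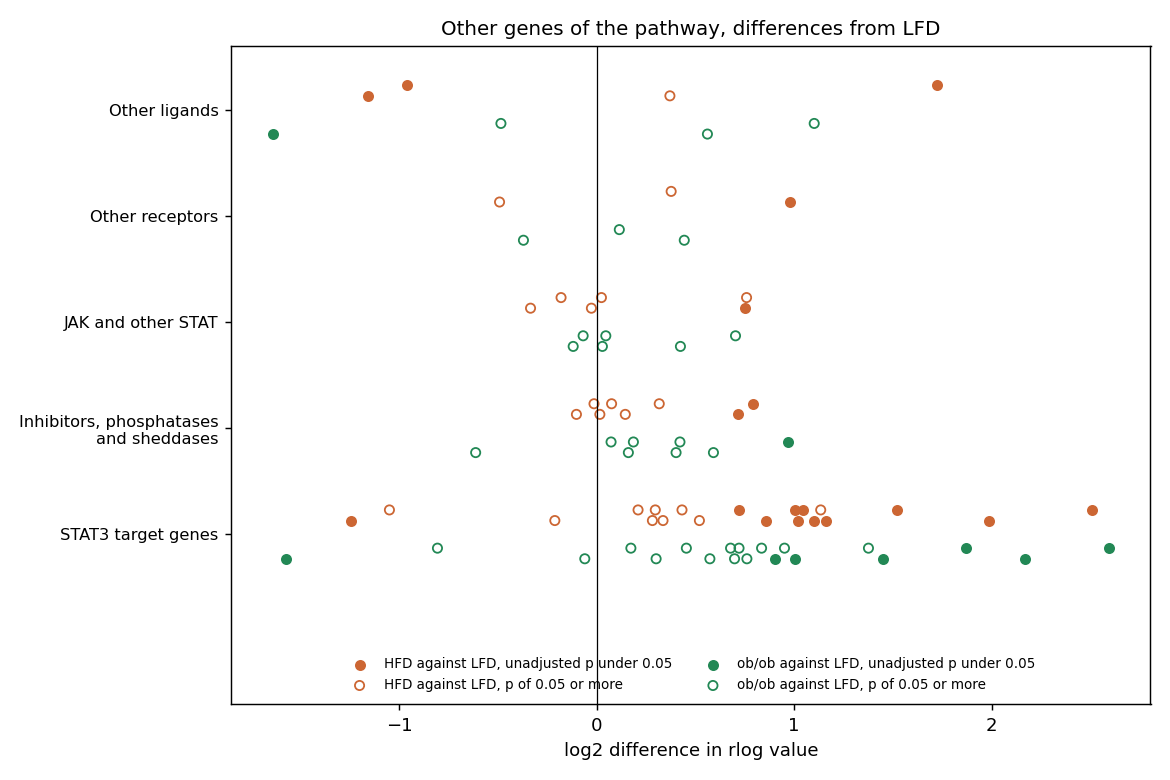
Log2 differences in rlog value from LFD of the 41 other pathway genes, by list, in HFD (orange) and ob/ob (green), with filled circles for an unadjusted p-value under 0.05 in limma. The STAT3 targets lie mostly above 0 in both models, whereas the kinases and STAT genes spread around 0.

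Markers of cell types were compared in the same mice. The label of pancreas was checked with the acinar list, of which 24 of 24 genes were measured and none was absent, the lowest being Ptf1a with a mean of 7.18. The 24 genes had a median difference of -1.92 in HFD and -2.07 in ob/ob. At an unadjusted p-value under 0.05, 1 gene was called lower in HFD and 0 in ob/ob, where 8.35% and 7.18% of all genes were. Groups without overlap and below LFD were found for 3 of the 24 genes in HFD (12.3% of all genes). In ob/ob they were found for 21 of the 24 (21.8% of all genes). The macrophage list (11 of 11 genes) had a mean between 8.40 and 8.86 in LFD, 9.05 and 10.01 in HFD, and 9.96 and 10.59 in ob/ob, and 6 genes were called higher in HFD and 11 in ob/ob, where 11.5% and 11.6% of all genes were. The neutrophil list (8 of 9 genes) was between 5.36 and 6.02 in LFD, 6.75 and 7.91 in HFD, and 6.74 and 6.86 in ob/ob, with 8 and 5 genes called higher. The fibroblast list (11 of 11 genes) was between 8.87 and 9.32 in LFD, 9.70 and 10.45 in HFD, and 10.10 and 10.83 in ob/ob, with 6 and 9 genes called higher. The lowest markers of the neutrophil and fibroblast lists were Mmp8 (mean 3.63) and Fap (6.98), and Ly6g of the neutrophil list was not among the genes measured. The part of macrophages, neutrophils and fibroblasts in the differences of Il6, Osm, Osmr and Socs3 was not tested.

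**Figure D4:**
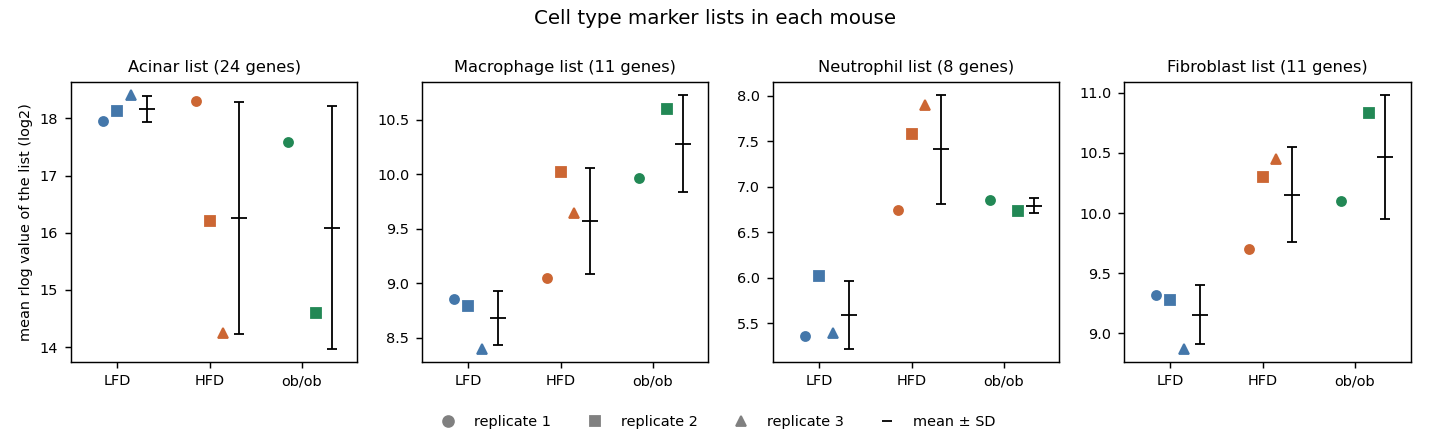
Mean rlog value (log2 scale) of the acinar, macrophage, neutrophil and fibroblast lists in each mouse, with black bars for the group mean ± SD. The obese mice are above the LFD mice in the macrophage, neutrophil and fibroblast lists, and HFD replicate 1 is lowest of the obese mice in the macrophage and fibroblast lists and within the LFD range in the acinar list.

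The ductal and epithelial list (8 of 8 genes) was between 9.57 and 9.91 in LFD, 9.83 and 10.77 in HFD, and 9.14 and 9.97 in ob/ob, so that HFD replicates 2 and 3 were highest, as they were for Lif. The endothelial list (6 of 6 genes) was between 7.28 and 8.02 in LFD, 7.68 and 8.25 in HFD, with the ob/ob mice inside these ranges. The lymphocyte list (7 of 8 genes) was highest in LFD replicate 2, at 5.45, and between 3.38 and 4.50 in the other mice. The adipocyte list (6 of 6 genes) was between 7.68 and 8.14 in LFD, 7.99 and 8.16 in HFD, and 7.44 and 8.79 in ob/ob, where the groups overlapped.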

How the data were processed

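Total RNA of pancreas tissue from 8 mice was sequenced paired-end by the authors. Per the paper, the authors used FastQC on the reads, Salmon 0.11.3 with Gencode M18 (GRCm38.p6) for transcript estimates, tximport for gene sums, and rlog of DESeq2 1.22.2 for the transformation. The deposited values are therefore on the log2 scale, corrected for library size, with 1 column per mouse, and range from 0.466 to 24.3. Medians per mouse were 7.09 to 7.25. The filter behind the 15047 genes and the setting of rlog are not given in the sources used here. Salmon shares reads between similar transcripts, so Il11ra1, which has near copies, and overlapping genes carry an uncertainty that is not shown. Counts and depth per mouse were not used here.

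The rlog values were fitted with limma 3.58.1 (R 4.3.3). The design had 1 mean per group over all 8 mice, with eBayes and a variance trend, and p-values were adjusted over all genes with the Benjamini-Hochberg method. The count model that the authors ran in DESeq2 was not used here. The fit was tested on simulated data with independent genes and the same spread in all mice. That test does not cover correlated genes or mice of unequal spread. Mice were grouped by their labels. The members, the lists and the rule for names were chosen with earlier results of these data known. All 10 members are named, with the 3 genes of each other pathway list that differed most between obese (mean of HFD and ob/ob) and LFD mice, some of which are not reported here. Gene positions are those of Gencode M21 on GRCm38, which matched 10 of 10 members, and promoter sequences are from RefSeq (GRCm38.p6).

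Alternatives were a fit without the trend, a fit to the compared groups alone, a minimum mean of 5, median centring, quantile normalization, array weights, a block for the replicate number, an acinar covariate, and leaving out each mouse.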

Additional observations from a re-analysis of the deposited data

Results flagged for a closer look

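Il6ra was the gene for which all 3 HFD mice lay below the LFD mean and both ob/ob mice above it. The direct difference of ob/ob from HFD was 0.62, with an adjusted p-value of 1 in limma, so the test of the difference did not pass. On leaving out each mouse in turn it stayed above 0.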

How the results depend on the processing

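All values rest on 2 or 3 mice per group, and the depth of each library is not known. The number of genes with an adjusted p-value under 0.05, which was 0 with all mice, became 1 in HFD against LFD and 38 in ob/ob against LFD when only the compared groups were fitted. With array weights, which gave HFD replicate 2 a weight of 9.36 and HFD replicate 1 a weight of 0.273, it was 6656 in HFD and 4286 for both models, with 8 and 5 of the 10 genes among them. With the acinar covariate it was 1 in ob/ob against LFD, 1 in ob/ob against HFD and 1 for both models. On leaving out each mouse, it was 0 to 2812 in HFD, 0 to 89 in ob/ob, 0 to 1 in ob/ob against HFD and 0 to 3326 for both models, with the 3 highest counts against LFD found without HFD replicate 1. The cause was not tested.

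Of the 10 genes, the number with an unadjusted p-value under 0.05 in limma was 3 in HFD, 2 in ob/ob, 1 in ob/ob against HFD and 3 for both models at a minimum mean of 5, which removes Il6, Il11, Lif and Osm (20.9%, 19.9%, 3.29% and 27.5% of the genes left). With the acinar covariate it was 3 in HFD and 2 for both models (11.1% and 11.5% of all genes), and with array weights 8 and 6 (52.7% and 42%). On leaving out each mouse it was 2 to 8, 2 to 5, 1 to 2 and 2 to 5, where 9.84% to 36.2%, 5% to 27.1%, 2.45% to 7.42% and 13.5% to 38.7% of all genes were called.

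Directions turned in these cases. In HFD against LFD, Il6st was 0.032 with quantile normalization and 0.037 with array weights. In ob/ob against LFD, Il11 was -0.078 with median centring and -0.11 with quantile normalization, Il6st was -0.043 with median centring and -0.10 with the acinar covariate, and Lif was -0.46 with the covariate. In ob/ob against HFD, Stat3 was 0.000599 with quantile normalization, and with array weights Osm was -0.19 and Socs3 -0.082. For both models, Il6st was 0.11 with quantile normalization and 0.053 with array weights, and Lif was -0.13 with the covariate.

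On leaving out each mouse, the differences that changed sign ranged as follows. In HFD against LFD, Il6st was -0.18 to 0.020 and Stat3 -0.42 to 0.11. In ob/ob against LFD, Il11 was -0.19 to 0.22, Lif -0.040 to 0.90, Il6st -0.015 to 0.099 and Stat3 -0.49 to 0.22. In ob/ob against HFD, Lifr was -0.52 to 0.78, Stat3 -0.39 to 0.31 and Socs3 -0.13 to 0.53. For both models, Il6st was -0.093 to 0.034 and Stat3 -0.44 to 0.096.

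The labels do not say whether mice with the same replicate number were paired. The deviations of such mice correlated between -0.281 and 0.592. Mice with different numbers were not compared in this way, so these values do not decide whether there was a pairing. With the number as a block, the count of genes with an adjusted p-value under 0.05 was 0 in each comparison, the count among the 10 genes was 6, 5, 2 and 5 before adjustment (21.6%, 21.6%, 3.1% and 27.6% of all genes), and Lifr was -0.14 in ob/ob against HFD. The fit to the compared groups alone was not run for both models, since it holds all mice.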
